A study of Mus musculus with 15 samples.

Results

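Transcripts of 9 genes that govern the G1 phase of the cell cycle were followed in mouse hepatocyte preparations: the D-type cyclins Ccnd1, Ccnd2 and Ccnd3, the kinases Cdk4 and Cdk6, the inhibitors Cdkn1b, Cdkn1c and Cdkn2c, and the retinoblastoma gene Rb1. They were found by Ensembl identifier among the 56953 genes of each library, each matched once, and all 9 were among the 17975 genes that passed the low-count filter. The series holds 15 libraries of messenger RNA, whose replicate numbers serve only as names. Wild-type (WT) animals contributed 4 libraries with mineral oil and 3 with carbon tetrachloride (CCl4), and animals with the ΔEGFR transgene contributed 4 with each. CCl4 is a liver toxin that hepatocytes turn into a radical, and mineral oil is its carrier. By its title the study concerns the epidermal growth factor receptor (EGFR) in the fibrotic liver. The labels give no dose, duration, age, sex or strain, and they give neither the promoter nor the species or part of EGFR in the transgene. A mouse line published under this name carries a truncated human receptor without its kinase domain in hepatocytes, but the labels do not say whether it is the line used.

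Hepatocytes of the adult liver are mostly quiescent and can enter the cell cycle again after injury or loss of tissue. Growth factor signalling, including that of EGFR, raises D-type cyclins, which bind and activate CDK4 and CDK6. The active kinases phosphorylate the retinoblastoma protein, which then releases E2F transcription factors that switch on genes of DNA replication. Inhibitors of the INK4 family, such as the product of Cdkn2c, bind CDK4 and CDK6 alone, whereas the CIP/KIP inhibitors from Cdkn1b and Cdkn1c bind cyclin and kinase together.

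The genes were selected on the readout itself: they were chosen with their counts and TPM (transcript abundance per length) over the 4 groups already known, among them a higher Ccnd1 with CCl4 in WT. These values are therefore a description. Each log2 fold change below comes with its standard error and with the adjusted p it had in one edgeR quasi-likelihood fit of all 17975 genes (Benjamini-Hochberg, called under 0.05). These p-values say where a gene stood in that fit and support nothing about the set. The labels name no animals, so the p-values measure only the spread between libraries, which may be technical.

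Total counts were 51.7 to 61.9 M (mega) in 6 libraries and 96.2 to 155.4 M in the other 9, and all ΔEGFR mineral oil libraries but only 1 of the 4 WT mineral oil libraries were in the deeper range. Hepatocyte markers (10 genes, none at 0 in any library) were lower with CCl4 in mean. CPM here are counts per M (mega) of the counts of genes that passed the filter, with trimmed-mean (TMM) scaling. The hepatocyte markers summed to 83659 to 149629 CPM in WT mineral oil and 50747 to 104491 CPM in WT CCl4. In the ΔEGFR groups they summed to 83712 to 168994 CPM and 50959 to 122712 CPM. Their mean log2 CPM was 12.05 ± 0.40 (SD, n = 4) and 10.97 ± 0.42 (n = 3) in the WT groups, which did not overlap, and 11.98 ± 0.37 and 11.23 ± 0.33 (n = 4 each) in the ΔEGFR groups, which did. The part of this shift in the CCl4 differences below was not tested. Markers of other liver and blood cells were present as well. By summed CPM those of macrophages and stellate cells were higher in every CCl4 library than in the mineral oil libraries of the same genotype. The 18 macrophage markers summed to 126 to 2210 CPM in WT mineral oil and 2780 to 8815 CPM in WT CCl4, and to 53.8 to 1253 CPM and 3514 to 6843 CPM in the ΔEGFR groups. Neutrophil, T and NK cell, B cell and endothelial sums overlapped between the treatments in both genotypes, and cholangiocyte sums did in ΔEGFR. Neutrophil sums were 2.83 to 2002 CPM in WT mineral oil and 93.2 to 389 CPM in WT CCl4. Their overlap in WT rested on mineral oil replicate 1, as the other WT mineral oil libraries had at most 30.3 CPM. The mean log2 CPM over 73 markers of these other cells is called the other-cell score here. It was 3.40 to 4.13 in the CCl4 libraries and −0.06 to 4.52 in the mineral oil libraries. Replicate 1 of WT mineral oil had the top score (4.52) and stood apart with 2002 CPM of neutrophil markers. It also had the highest T and NK cell, B cell and endothelial sums of the 15 libraries (145, 113 and 835 CPM). In the other libraries these were at most 22.9, 67.7 and 545 CPM. Its part in the results below was not tested beyond the values given with the score as a covariate and without that library. In bulk RNA, fewer cells of a type and less RNA per cell cannot be told apart. Mouse Egfr counts do not check the genotype labels, because the species and the part of EGFR in the transgene are not given.

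Per transcript length, Ccnd1 and Cdk4 were the most abundant of the 9 genes with CCl4, while Ccnd3 and Cdk4 led in WT mineral oil. The scale here is the deposited TPM, which takes account of transcript length. Mean Ccnd1 was 12.8 ± 9.45 TPM (SD, n = 4) in WT mineral oil, where it ranked behind Ccnd3, Cdk4 and Cdkn1b. It came first in the other groups: 99.3 ± 9.35 TPM (n = 3) with CCl4 in WT, then 47.0 ± 29.2 TPM with mineral oil and 92.9 ± 24.7 TPM with CCl4 in ΔEGFR (n = 4 each). Cdk4 ranked second in all 4 groups, with means of 32.6 ± 4.39, 77.3 ± 14.0, 37.3 ± 11.6 and 70.4 ± 19.3 TPM in the same order. Cdkn1c, Rb1 and Ccnd2 were the least abundant in every group except WT mineral oil, where Cdk6 stood in the place of Ccnd2. That exception rested on replicate 1: Ccnd2 measured 26.9, 0.62, 0.34 and 1.43 TPM in replicates 1 to 4, and in the last 3 it lay below Cdk6 (4.05 to 6.71 TPM) as well. In most of the order neighbouring genes overlapped in their ranges. The exceptions were Cdk4 above Cdkn1b and Rb1 above Cdkn1c in WT mineral oil, Cdk4 above Ccnd3 and Ccnd3 above Cdkn1b in WT CCl4, Cdk6 above Rb1 in ΔEGFR mineral oil, and Ccnd3 above Cdkn2c in ΔEGFR CCl4.

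The makeup of the D-type cyclin pool differed between WT mineral oil and the other groups. Ccnd1 made up 24.3% ± 15.5 (SD, n = 4) of the summed TPM of the 3 cyclins in WT mineral oil, with single libraries at 12.5% to 47.0%. With CCl4 its share was 69.0% ± 2.63 (n = 3) in WT and 66.4% ± 3.45 (n = 4) in ΔEGFR, and ΔEGFR with mineral oil had 57.5% ± 11.8 (n = 4). The WT mineral oil shares overlapped those of ΔEGFR mineral oil by a narrow margin, the lowest of which was 46.9%, and lay below all CCl4 libraries. Ccnd3 held 67.7% ± 14.6 in WT mineral oil and 28% ± 3.16, 40.2% ± 11.4 and 29.8% ± 4.15 in the other groups. The pool itself summed to 55.5 ± 33.2 TPM in WT mineral oil, 143.8 ± 9.37 TPM in WT CCl4, 76.7 ± 34.2 TPM in ΔEGFR mineral oil and 139.4 ± 32.3 TPM in ΔEGFR CCl4. TPM carries no correction for the makeup of the library: in unscaled counts the median gene was 0.40 (WT) and 0.44 (ΔEGFR) higher with CCl4 on the log2 scale, so TPM differences between treatments include a shift of that kind.

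**Figure D1:**
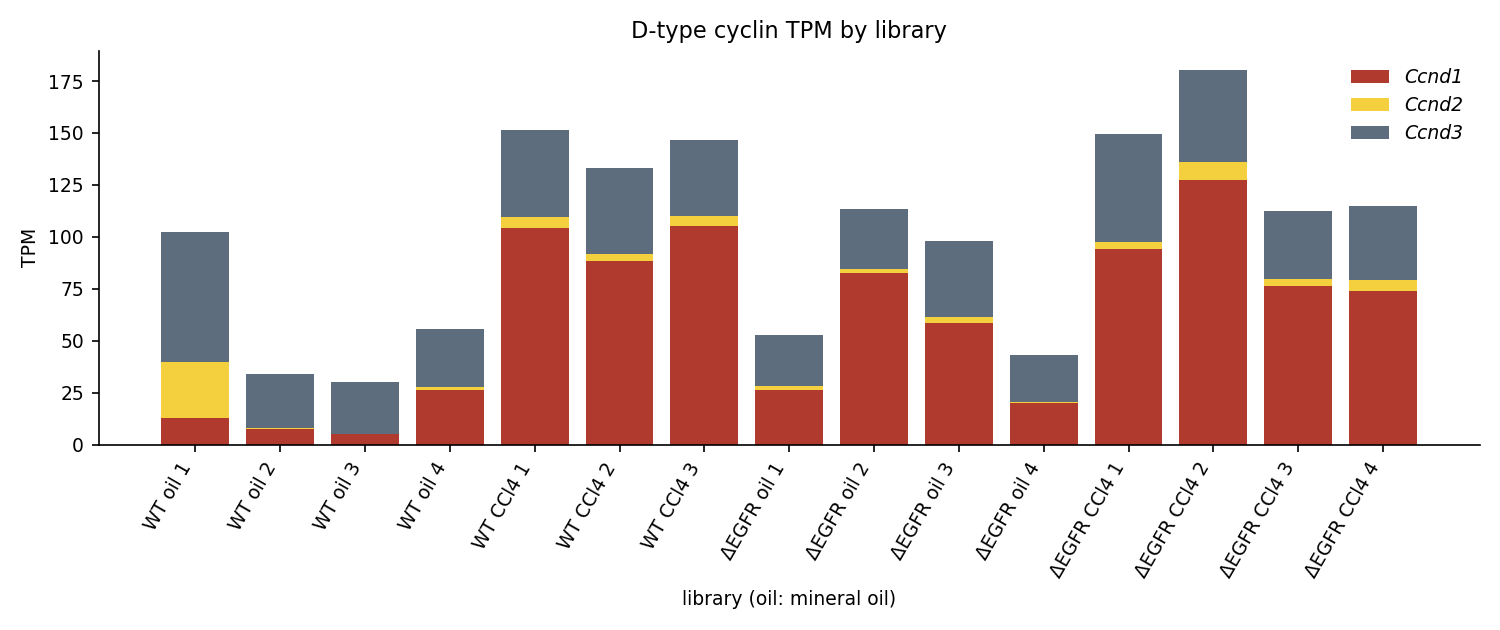
Stacked bars give the TPM of Ccnd1, Ccnd2 and Ccnd3 in each of the 15 libraries, with the library on the x axis. Ccnd1 fills the larger part of every CCl4 bar (74.0 to 127 TPM), Ccnd3 the larger part of every WT mineral oil bar, and Ccnd2 shows mainly in WT mineral oil replicate 1 (26.9 TPM).

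Ccnd1 encodes cyclin D1, the D-type cyclin known for its rise in regenerating liver. The scale from here on is again CPM with TMM scaling. In WT mineral oil Ccnd1 measured 34.7, 23.7, 14.6 and 69.6 CPM in replicates 1 to 4. In WT CCl4 it measured 234, 192 and 183 CPM. The WT groups were far apart, with mineral oil replicate 4 the nearest to the CCl4 libraries. In ΔEGFR mineral oil the values were 109.5, 213, 139 and 64.4 CPM. In ΔEGFR CCl4 they were 182, 221, 165 and 179 CPM. The ΔEGFR groups overlapped: replicate 2 of mineral oil lay among the CCl4 values, while replicates 1, 3 and 4 lay below them.

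With CCl4, Ccnd1 rose in WT by a log2 fold change of 2.51 ± 0.46 (95% interval 1.53 to 3.50, 5.70-fold, adjusted p = 0.00671 by edgeR's quasi-likelihood test). In ΔEGFR the difference was 0.51 ± 0.42 (−0.39 to 1.40, adjusted p = 0.469), and it was not called. The interaction, the ΔEGFR difference minus the WT difference, was −2.01 ± 0.61 (−3.32 to −0.69) with an unadjusted p of 0.00582 and an adjusted p of 1.0, so a difference between the genotypes in the response was not called. Between genotypes in mineral oil Ccnd1 was 1.88 ± 0.43 higher in ΔEGFR on the log2 scale (0.96 to 2.81), with an unadjusted p of 0.000698 and an adjusted p of 0.713. In 25 alternative fits this value ran from 1.58 to 2.42 and was not called in any, with adjusted p-values from 0.0636 (DESeq2) to 1.0. With the range of total counts (lower or higher) as a covariate it was 1.89 (adjusted p = 0.364). The overlap rested on a single pair: WT replicate 4 at 69.6 CPM lay above ΔEGFR replicate 4 at 64.4 CPM. With CCl4 the genotypes differed by −0.12 ± 0.45 (−1.09 to 0.84, adjusted p = 1.0).

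The WT call of Ccnd1 held with the other-cell score as a covariate (1.96, adjusted p = 0.0346) and without any single library (2.25 to 3.05). It was lost when only the 7 WT libraries were fitted (2.51, adjusted p = 0.0504). Over both genotypes Ccnd1 was 1.51 ± 0.31 higher with CCl4 (adjusted p = 0.00382), and with the other-cell score as a covariate 0.95 (adjusted p = 0.121).

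**Figure D2:**
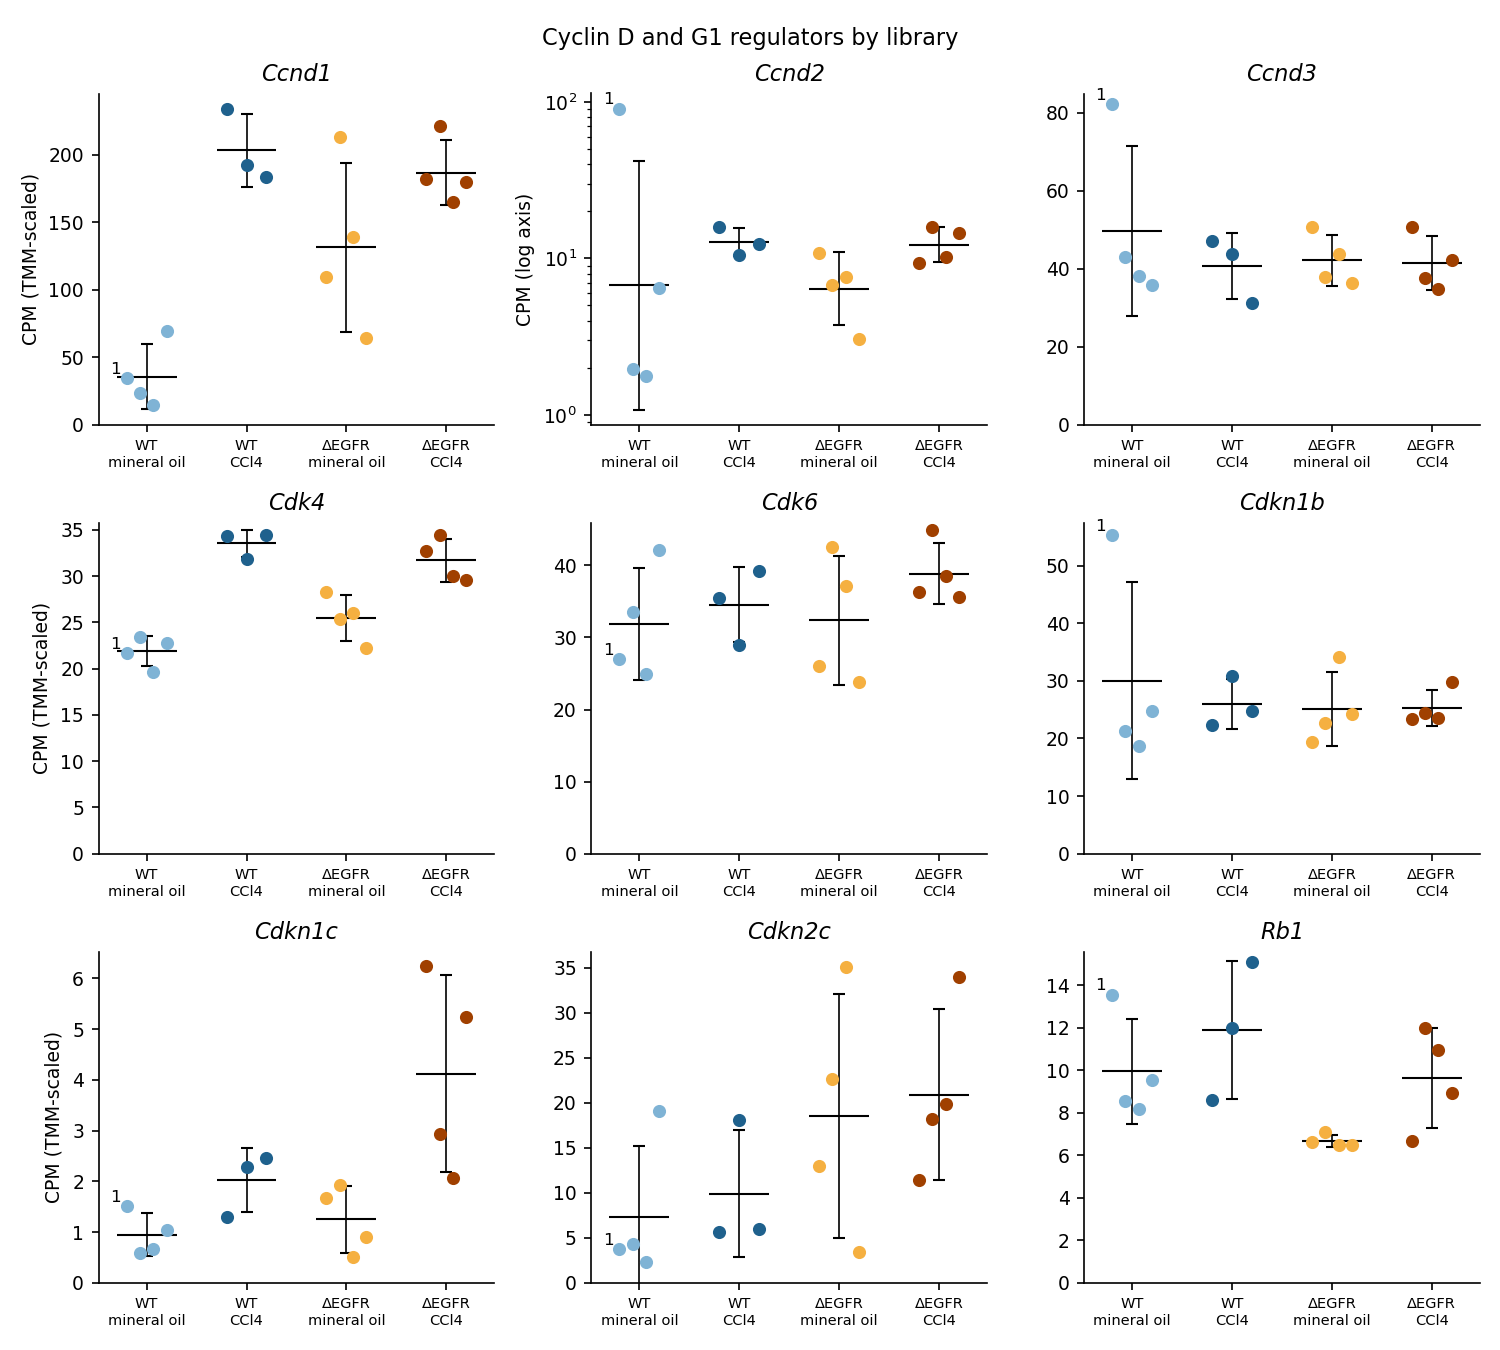
Each point is the TMM-scaled CPM of one library, with the group mean as a line and the SD as a bar; the Ccnd2 panel has a log axis with the mean and SD of log2 values, and the digit marks WT mineral oil replicate 1. Ccnd1 and Cdk4 of WT CCl4 lie above all WT mineral oil libraries, and replicate 1 is the highest library of its group for Ccnd2 (90.6 CPM), Ccnd3 (82.2 CPM) and Cdkn1b (55.3 CPM).

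Ccnd2 encodes cyclin D2, the D-type cyclin prominent in lymphocytes and other blood cells. In WT mineral oil it measured 90.6, 1.97, 1.78 and 6.45 CPM in replicates 1 to 4, a spread of over an order of magnitude set by replicate 1. In WT CCl4 it measured 15.9, 10.5 and 12.4 CPM. In ΔEGFR the values were 10.8, 6.73, 7.60 and 3.04 CPM with mineral oil. With CCl4 the ΔEGFR values were 9.37, 15.8, 10.3 and 14.6 CPM. Outside WT mineral oil replicate 1, the 7 mineral oil libraries lay at or below 10.8 CPM and the 7 CCl4 libraries at or above 9.37 CPM, so the treatments met only at that edge.

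No comparison called Ccnd2 with all libraries. For CCl4 in WT its log2 fold change was −0.96 ± 1.06 (−3.25 to 1.32, adjusted p = 0.583). Without WT mineral oil replicate 1 the sign turned and the difference was called, at 1.93 (adjusted p = 0.0185), and the mean over the genotypes went from −0.07 ± 0.71 to 1.38 (adjusted p = 0.00634). The remaining WT mineral oil libraries had 3.40 ± 2.64 CPM (SD, n = 3). The genotype difference in mineral oil likewise went from −1.84 ± 0.99 to 1.05 without that library (adjusted p = 0.713 and 0.822).

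Ccnd3 encodes cyclin D3, found in many resting and differentiated tissues. It measured 82.2, 42.9, 38.1 and 35.8 CPM in WT mineral oil and 47.2, 43.7 and 31.3 CPM in WT CCl4. Its ΔEGFR values were 50.6, 37.8, 43.7 and 36.4 CPM with mineral oil and 50.8, 37.7, 34.9 and 42.2 CPM with CCl4. Apart from WT mineral oil replicate 1 the libraries of all 4 groups lay between 31.3 and 50.8 CPM. The CCl4 difference was −0.29 ± 0.27 in WT (−0.87 to 0.29, adjusted p = 0.510) and −0.03 ± 0.25 in ΔEGFR (−0.56 to 0.51, adjusted p = 0.960), and the sign in ΔEGFR turned to positive with other scaling factors.

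Among the kinases edgeR called Cdk4 higher with CCl4 and did not call Cdk6. Cdk4 measured 21.7, 23.4, 19.7 and 22.8 CPM in WT mineral oil and 34.4, 31.8 and 34.4 CPM in WT CCl4. In ΔEGFR it measured 28.3, 25.4, 26.0 and 22.2 CPM with mineral oil and 32.7, 34.5, 30.1 and 29.6 CPM with CCl4. Every CCl4 library lay above every mineral oil library over both genotypes, as for 3.64% of all genes tested, with the narrowest spread of the 9 genes (biological coefficient of variation 16.2%, against 88.3% for Ccnd2).

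Cdk4 rose in WT by 0.61 ± 0.11 (0.38 to 0.85, 1.53-fold, adjusted p = 0.00638). In ΔEGFR the difference was 0.32 ± 0.10 (0.10 to 0.53, adjusted p = 0.0859), which edgeR did not call and which DESeq2, limma on TPM and a fit with no scaling factor did. The median of all genes in those fits was 0.03, 0.38 and 0.44, in the same order. The interaction was −0.30 ± 0.15 (−0.62 to 0.02, adjusted p = 1.0), so the responses of the genotypes were not shown to differ. In the mean of the genotypes Cdk4 was 0.47 ± 0.07 higher with CCl4 (adjusted p = 0.00103), and 0.39 higher with the other-cell score as a covariate (adjusted p = 0.0272). Between the genotypes it was 0.22 ± 0.10 higher in ΔEGFR with mineral oil (adjusted p = 0.713) and −0.08 ± 0.11 with CCl4 (adjusted p = 1.0).

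Cdk6, the second kinase partner of D-type cyclins, measured 27.0, 33.6, 24.9 and 42.1 CPM in WT mineral oil and 35.4, 28.9 and 39.2 CPM in WT CCl4. In ΔEGFR it measured 26.0, 42.6, 37.1 and 23.8 CPM with mineral oil and 36.3, 44.9, 38.5 and 35.6 CPM with CCl4. The groups overlapped in each comparison, and the CCl4 difference was 0.11 ± 0.22 in WT (−0.36 to 0.59) and 0.26 ± 0.21 in ΔEGFR (−0.18 to 0.71), adjusted p = 0.768 and 0.448. In the mean over the genotypes it was called in 1 alternative, the fit with no scaling factor (0.63, adjusted p = 0.0299), where the median of all genes was 0.43. Per transcript length Cdk6 was the minor kinase: Cdk4 held 86.5% ± 1.27 of their summed TPM in WT mineral oil, 91.1% ± 1.5 in WT CCl4, 86.9% ± 3.08 in ΔEGFR mineral oil and 88.4% ± 1.67 in ΔEGFR CCl4 (SD, n = 4, 3, 4 and 4).

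RefSeq promoter sequence (GRCm38.p6) was at hand for 5 of the 9 genes: Ccnd3, Cdk4, Cdk6, Cdkn1b and Cdkn2c. The 250 bases before the start are shown for the kinases, because their transcripts stood on opposite sides of the call in WT. Cdk4 lies at chr10:127063285-127063534 and Cdk6 at chr5:3343643-3343892, both on the + strand. Capitals mark CACGTG, the E-box hexamer that reads alike on both strands.
Cdk4: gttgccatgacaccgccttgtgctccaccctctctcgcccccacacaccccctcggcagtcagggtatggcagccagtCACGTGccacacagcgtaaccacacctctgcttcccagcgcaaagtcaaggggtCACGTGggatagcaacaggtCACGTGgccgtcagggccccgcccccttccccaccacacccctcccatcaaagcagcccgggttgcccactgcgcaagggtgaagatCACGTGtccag
Cdk6: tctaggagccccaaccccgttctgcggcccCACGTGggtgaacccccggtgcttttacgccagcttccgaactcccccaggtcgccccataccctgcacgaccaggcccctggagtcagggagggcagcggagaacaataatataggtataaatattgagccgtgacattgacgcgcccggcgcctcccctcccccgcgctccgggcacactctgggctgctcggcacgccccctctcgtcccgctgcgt

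The Cdk4 sequence held CACGTG 4 times, with first bases at positions −172, −118, −98 and −11 from the start, and the Cdk6 sequence held it once, at −220. Of 32851 RefSeq promoter windows of the same length, 6.02% held at least 1 copy and 7 windows (0.0213%) held 4 or more. None of the 5 windows of Ccnd3, Cdkn1b and Cdkn2c held it. The GC box GGGCGG was also searched on both strands, as were the CCAAT box, the AP-1 site TGANTCA and the CRE core TGACGT. They occurred in 32.7%, 33.8%, 6.75% and 6.47% of all windows. Cdk4 held 1 GGGCGG and none of the others, and Cdk6 held none of these. No matches of different motifs overlapped. A match is a description of the letters and shows neither binding nor a cause.

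With all libraries edgeR called none of the inhibitors in either genotype, and it called Cdkn1c in the mean over the genotypes. Cdkn1b, the CIP/KIP inhibitor known for holding quiescent cells in G1, measured 55.3, 21.3, 18.7 and 24.8 CPM in WT mineral oil and 22.3, 30.8 and 24.8 CPM in WT CCl4. The ΔEGFR libraries had 19.3, 22.7, 34.2 and 24.2 CPM with mineral oil and 23.3, 24.5, 23.5 and 29.9 CPM with CCl4. All groups overlapped, and its CCl4 difference was −0.21 ± 0.32 in WT (−0.91 to 0.49) and 0.01 ± 0.30 in ΔEGFR (−0.63 to 0.65), adjusted p = 0.704 and 0.987. Without WT mineral oil replicate 1 the WT value was 0.27.

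Cdkn1c, the imprinted inhibitor of the same family, was the rarest of the 9 transcripts by count, with 26 to 984 counts per library. It measured 1.52, 0.583, 0.659 and 1.04 CPM in WT mineral oil and 1.3, 2.29 and 2.46 CPM in WT CCl4. In ΔEGFR it measured 1.66, 1.93, 0.513 and 0.900 CPM with mineral oil and 6.24, 2.94, 2.07 and 5.23 CPM with CCl4. The ΔEGFR groups did not overlap, and the WT groups overlapped through mineral oil replicate 1 and CCl4 replicate 1. The CCl4 difference was 1.08 ± 0.51 in WT (−0.03 to 2.19, adjusted p = 0.183) and 1.72 ± 0.49 in ΔEGFR (0.66 to 2.77, adjusted p = 0.0641). The ΔEGFR difference was called with DESeq2 (1.76, adjusted p = 0.00536), limma on TPM (1.47, adjusted p = 0.0164), no scaling factor (2.21, adjusted p = 0.0359) and the range of total counts as a covariate (1.87, adjusted p = 0.0266). It was also called by edgeR without WT mineral oil replicate 1 (1.72, adjusted p = 0.0361). The median of all genes in ΔEGFR was itself 0.38 with limma on TPM and 0.44 with no scaling factor. The interaction was 0.64 ± 0.71 (adjusted p = 1.0). Taking both genotypes, Cdkn1c was 1.40 ± 0.35 higher with CCl4 (2.64-fold, adjusted p = 0.0114), and with the other-cell score as a covariate 1.01 (adjusted p = 0.152).

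Cdkn2c, an INK4 inhibitor, varied widely within groups. It measured 3.77, 4.28, 2.27 and 19.1 CPM in WT mineral oil and 5.64, 18.1 and 5.98 CPM in WT CCl4. ΔEGFR values were 13, 22.6, 35.0 and 3.43 CPM with mineral oil and 11.4, 18.2, 19.9 and 34 CPM with CCl4. Each group held libraries several-fold apart, and all groups overlapped. The CCl4 difference was 0.43 ± 0.79 in WT (−1.28 to 2.14) and 0.17 ± 0.73 in ΔEGFR (−1.41 to 1.76), adjusted p = 0.755 and 0.906. The intervals take in differences of over 2-fold in both directions. The WT value without CCl4 replicate 2 was −0.24. Across both treatments ΔEGFR was 1.21 ± 0.56 higher (0.01 to 2.40), with an unadjusted p of 0.0486 and an adjusted p of 0.831.

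Rb1, the target of the kinases, had its lowest mean in ΔEGFR mineral oil (6.67 ± 0.286 CPM, SD, n = 4), but edgeR with all libraries called it in no comparison. It measured 13.6, 8.57, 8.16 and 9.54 CPM in WT mineral oil and 8.58, 12 and 15.1 CPM in WT CCl4. ΔEGFR libraries had 6.63, 7.09, 6.51 and 6.47 CPM with mineral oil and 6.67, 12, 11 and 8.93 CPM with CCl4. All 4 ΔEGFR mineral oil libraries lay below all WT libraries, and the treatments of ΔEGFR overlapped through CCl4 replicate 1. The genotype difference in mineral oil was −0.58 ± 0.22 (−1.06 to −0.10), with an unadjusted p of 0.0223 and an adjusted p of 0.713, and −0.39 without WT mineral oil replicate 1. With CCl4 the difference was 0.26 ± 0.24 in WT (adjusted p = 0.514) and 0.53 ± 0.22 in ΔEGFR (0.05 to 1.01, adjusted p = 0.166). The mean over the genotypes was 0.39 ± 0.16 (adjusted p = 0.0908), and it was called without WT mineral oil replicate 1 (0.49, adjusted p = 0.0209), without replicate 1 of WT CCl4 (0.55, adjusted p = 0.0367) and without replicate 1 of ΔEGFR CCl4 (0.46, adjusted p = 0.0442). The fit with no scaling factor (0.85, adjusted p = 0.0106) and limma on TPM (0.71, adjusted p = 0.0112) called it as well. In these fits the median of all genes was itself 0.43 and 0.38 higher with CCl4, so their values include a shift of that kind.

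By comparison, edgeR called 2 of the 9 genes higher with CCl4 in WT (Ccnd1 and Cdk4) and none lower, where 12.5% of all tested genes were called (5.31% higher and 7.20% lower). For the same genes the WT groups did not overlap, as for 12.1% of all genes in that direction. In ΔEGFR edgeR called 0 of 9 (4.15% of all genes). At an unadjusted p under 0.05 stood 3 (Cdk4, Cdkn1c and Rb1), beside 4447 of all 17975 genes. DESeq2 and limma on TPM each called 2, beside 2410 of 17975 and 2132 of 15255 genes. Cdk4 and Cdkn1c were higher in all ΔEGFR CCl4 libraries than in all ΔEGFR mineral oil libraries, as were 12.3% of all genes. Averaged over the genotypes 3 of 9 were called higher (Ccnd1, Cdk4 and Cdkn1c), where 27.1% of all genes were called (12% higher). The genes were chosen with earlier results of these contrasts known, and nothing is read from these counts. The median log2 fold change of the 9 genes was 0.26 in WT and 0.32 in ΔEGFR, beside −0.03 and −0.02 over all genes tested.

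Between the genotypes edgeR called 0 of the 9 genes and 0% of all tested genes, with mineral oil as with CCl4. In mineral oil 3 of 9 had an unadjusted p under 0.05 (Ccnd1, Cdk4 and Rb1), and 1197 of all 17975 genes did. Rb1 was lower in every ΔEGFR mineral oil library, as were 1.29% of all genes. With CCl4 none of the 9 had an unadjusted p under 0.05, and 411 of all 17975 genes did. DESeq2 and limma on TPM also called none of the 9 in either treatment. Averaged over the treatments edgeR called 0 of 9 and 0% of all genes, with Ccnd1, Cdkn2c and Rb1 and 879 of all genes at an unadjusted p under 0.05. The interaction called 0 of 9 and 0% of all genes with edgeR, and 0 of 9 with DESeq2 and limma; at an unadjusted p under 0.05 stood Ccnd1 alone of the 9, and 568 of all genes. The comparisons share groups, so values of one gene in different comparisons are not independent of each other.

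**Figure D3:**
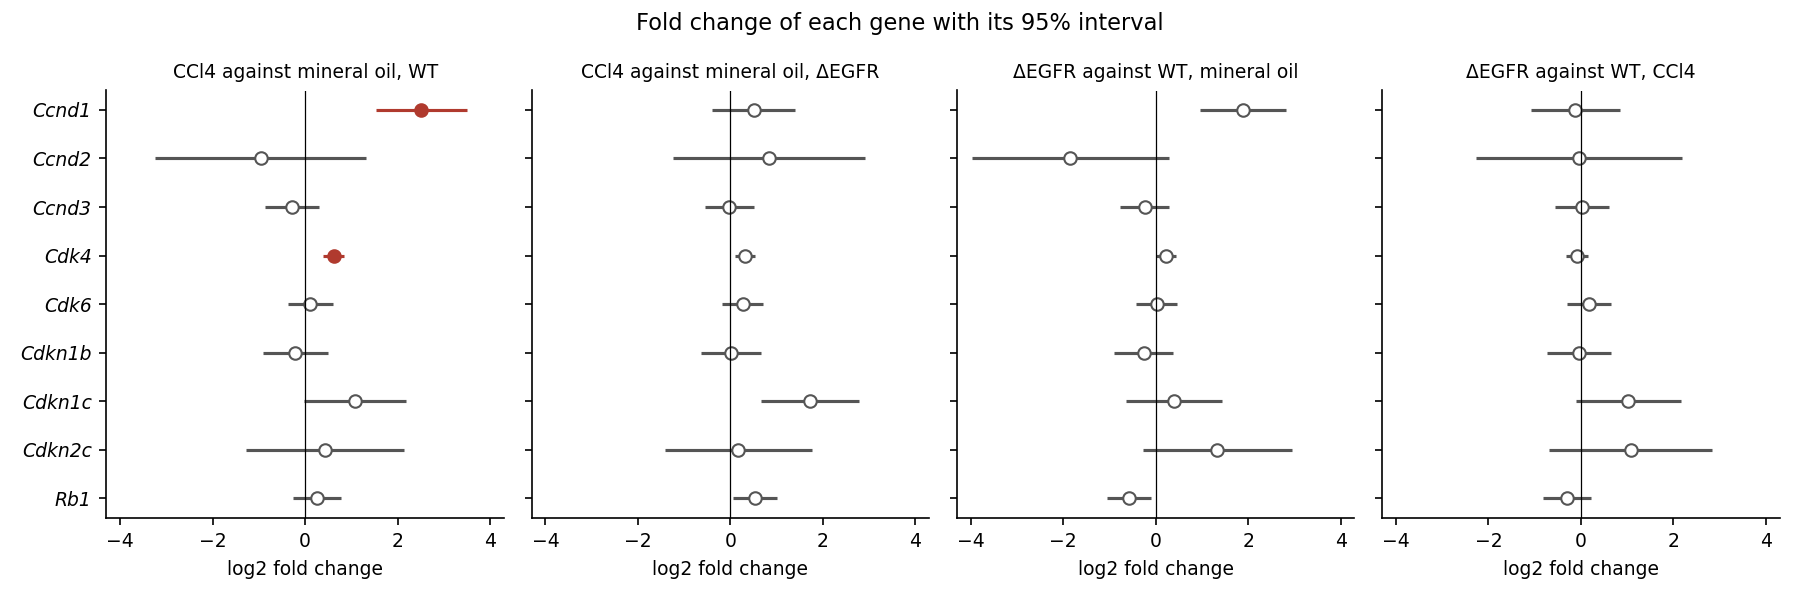
Points give the log2 fold change of each gene in 4 comparisons with its 95% interval; filled points had an adjusted p under 0.05. Only Ccnd1 (2.51) and Cdk4 (0.61) are filled, both for CCl4 in WT, and the widest intervals belong to Ccnd2 and Cdkn2c.

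Beyond the 9 genes, a list of 30 other genes of the G1 machinery was read in the same fit. It was also chosen with earlier results of these data known, so its counts and medians are a description. With CCl4 in WT 3 of the 30 rose and 3 fell, where 5.31% of all tested genes were called higher and 7.20% lower, with a list median of 0.20 beside −0.03 over all genes. E2f1, an activating E2F factor, rose from 5.73 ± 2.17 CPM (SD, n = 4) to 11.6 ± 2.29 CPM (n = 3), or 1.02 ± 0.29 on the log2 scale (adjusted p = 0.0387). Skp2, a ligase subunit that targets the Cdkn1b product for degradation, rose by 1.26 ± 0.37 (adjusted p = 0.0432) and is named after its values were seen. Cdkn2a, which encodes an INK4 inhibitor and the p53 regulator ARF, rose by 2.81 ± 0.80 (adjusted p = 0.0366) from 0.141 CPM or less to between 0.185 and 0.881 CPM, a level at which the fitted fold depends on the prior count.

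The genes that fell were Rbl2, Fbxo31 and Tfdp2. Rbl2, the retinoblastoma relative that acts with repressive E2F factors in resting cells, fell from 55.0 ± 4.63 to 28.5 ± 4.94 CPM (−0.95 ± 0.17, adjusted p = 0.00660). Fbxo31, a ligase subunit reported to target cyclin D1, fell from 83.3 ± 25.0 to 24.3 ± 6.49 CPM (−1.78 ± 0.37, adjusted p = 0.0114). Tfdp2, a dimer partner of E2F factors, fell from 18 ± 4.46 to 9.94 ± 0.750 CPM (−0.86 ± 0.20, adjusted p = 0.0185). In ΔEGFR edgeR called none of the 30 with CCl4, beside 4.15% of all tested genes. At an unadjusted p under 0.05 stood 6 of the 30, beside 4447 of all 17975 genes. DESeq2 called 1 of the 30 and 2410 of all 17975 genes, and limma on TPM called 5 and 2132 of 15255. The values of Rbl2 and Fbxo31 in ΔEGFR were −0.49 ± 0.16 (adjusted p = 0.0871) and −0.67 ± 0.32 (adjusted p = 0.220).

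Averaged over the genotypes 5 of the 30 rose and 4 fell, where 27.1% of all tested genes were called (12% higher). Rbl2 (−0.72 ± 0.12, adjusted p = 0.00112), Cdkn2a (2.86 ± 0.55, adjusted p = 0.00285), Fbxo31 (−1.22 ± 0.24, adjusted p = 0.00340) and Tfdp2 (−0.59 ± 0.14, adjusted p = 0.00713) had the lowest adjusted p. The others, most of them named after their values were seen, were E2f1 (0.86), Skp2 (1.0), Cdc25a (0.57), Cdkn2b (1.32) and Ambra1 (−0.30). The count of rises ran from 1 with the other-cell score as a covariate to 20 with limma on TPM. That of falls ran from 1 to 5. Over all genes the score fit called 1448 of 17975 in either direction and limma 6728 of 15255. With limma the median of all genes was itself 0.38. With 1 library left out, 3293 to 7810 of all genes were called. Rises were 9 without WT mineral oil replicate 1, 10 without ΔEGFR mineral oil replicate 3, and 3 without WT mineral oil replicate 3, WT CCl4 replicate 3, ΔEGFR mineral oil replicate 1 or ΔEGFR CCl4 replicate 2. In WT alone rises ran from 0 to 14 and falls from 1 to 3, beside 533 to 5111 of all genes called in either direction. There no gene rose without replicate 2 or 3 of either WT group or replicate 3 of ΔEGFR CCl4, and 1 rose without ΔEGFR mineral oil replicate 2 or ΔEGFR CCl4 replicate 2. The WT falls were 1 without WT CCl4 replicate 3.

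Of the other genes followed, Cdk2, the kinase that acts after CDK4 and CDK6, stayed between 9.5 and 14.2 CPM in all libraries (CCl4 in WT 0.20 ± 0.15, adjusted p = 0.403). Ccne1, its cyclin partner, had means of 2.72 to 5.57 CPM over the groups (0.17 ± 0.48, adjusted p = 0.840). Cdkn1a, the p53-responsive CIP/KIP inhibitor, had 19.2 ± 24.6 CPM in WT mineral oil (n = 4) and 108 ± 6.65 CPM in WT CCl4 (n = 3). Its WT groups did not overlap, but its spread in mineral oil was wide and it was not called (2.49 ± 0.97, adjusted p = 0.109). Rbl1, a retinoblastoma relative known as an E2F target, also did not overlap in WT and was not called (1.40 ± 0.64, adjusted p = 0.165). Myc, a growth factor-responsive transcription factor, ranged from 11.1 to 167 CPM in WT mineral oil and from 4.11 to 15.6 CPM in ΔEGFR mineral oil, a difference of −2.53 ± 0.77 (adjusted p = 0.713).

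Of the listed E2F target genes, the readout downstream of Rb1, some were called higher with CCl4. This list too was chosen with earlier results of these data known, so its counts and medians are a description and support nothing about the set. In WT 4 of 22 rose and 1 fell, where 5.31% of all tested genes were called higher and 7.20% lower. The list median was 0.82 beside −0.03 over all genes, and with the other-cell score as a covariate it was 0.24, with 2 rises and no fall. In that fit 837 of all genes were called in either direction, with a median of −0.01 over all genes. Cdt1, which licenses replication origins, rose from 6.5 ± 2.08 to 18.3 ± 2.61 CPM (1.5 ± 0.31, adjusted p = 0.0115). Pcna, the sliding clamp of DNA polymerase, rose from 25.2 ± 4.95 to 51.6 ± 17.7 CPM (1.04 ± 0.24, adjusted p = 0.0156). Mcm2 and Mcm3, subunits of the replicative helicase, rose by 1.70 ± 0.43 and 1.76 ± 0.50 (adjusted p = 0.0236 and 0.0366), the latter named after its values were seen. Mcm10, another replication factor, fell from 123 ± 84.7 to 23.4 ± 1.42 CPM (−2.40 ± 0.63, adjusted p = 0.0275), and 5 of the 22 had a negative difference, called or not.

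In ΔEGFR edgeR called 1 of the 22 with CCl4, Pcna (0.88 ± 0.22, adjusted p = 0.0436), beside 4.15% of all tested genes. The list median was 0.71 beside −0.02 over all genes. Averaged over the genotypes 12 rose and 1 fell (Mcm10, −1.91 ± 0.41, adjusted p = 0.00543), beside 12% of all tested genes called higher and 27.1% in either direction. The rises were led by Cdt1 (1.28 ± 0.21, adjusted p = 0.00134), Pcna (0.96 ± 0.16, adjusted p = 0.00141) and Mcm3 (1.51 ± 0.34, adjusted p = 0.00674). With the other-cell score as a covariate 3 rose and none fell, beside 1448 of all genes called. In WT the rises ran from 1 to 10 over the alternatives, beside 533 to 5111 of all genes called in either direction. The WT rises were 9 without WT mineral oil replicate 1, 2 when replicate 2 of WT CCl4 was left out, and 1 without replicate 3 of WT CCl4 or without replicate 2 or 3 of WT mineral oil. The WT fall of Mcm10 was not called without mineral oil replicate 3 of WT, nor without replicate 1 or 3 of WT CCl4. In ΔEGFR 4 were called without WT mineral oil replicate 1, 2 without WT mineral oil replicate 3, and no gene in 9 of the 15 fits that left out 1 library. Over those 15 fits 75 to 2145 of all genes were called.

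**Figure D4:**
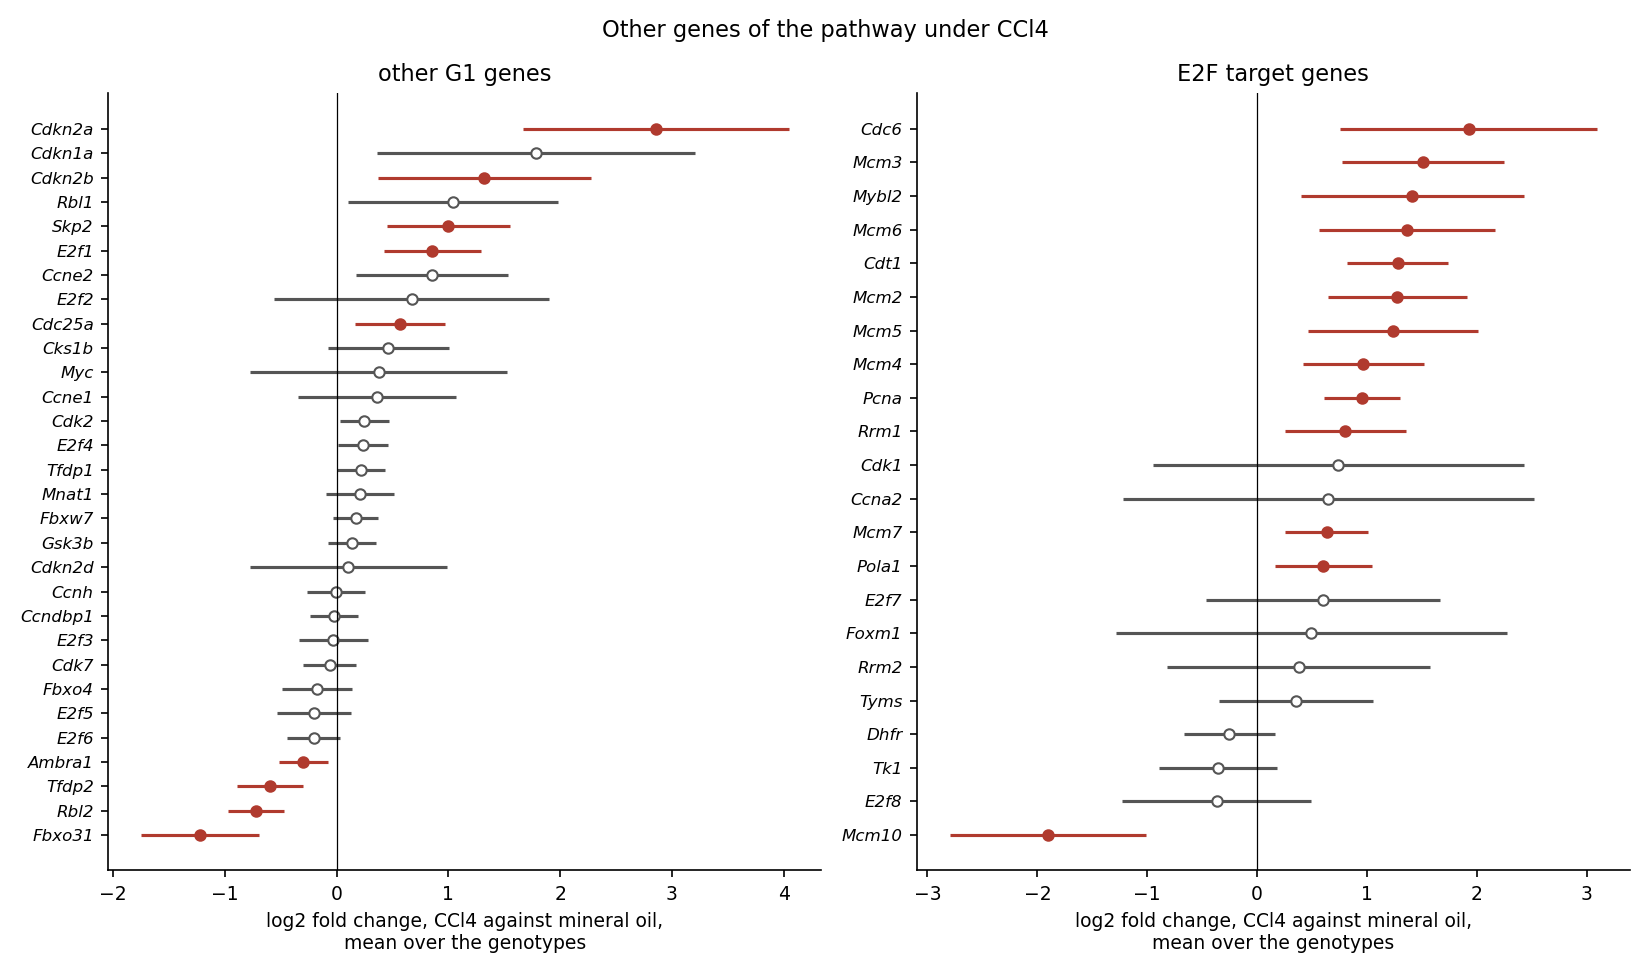
Points give the log2 fold change for CCl4 against mineral oil, averaged over the genotypes, with its 95% interval, for 30 other G1 genes (left) and 22 E2F target genes (right); filled points had an adjusted p under 0.05. Rises and falls are mixed in the left panel (5 and 4), while the right panel has 12 rises and Mcm10 as its fall (−1.91).

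Levels of the 9 genes were set against the other-cell score within each treatment, in 18 relations. Both genotypes were pooled and the permutations took no account of genotype, so a difference between the genotypes can enter these values. In the 8 mineral oil libraries Ccnd2 followed the score, with Pearson's r = 0.93 (exact permutation p = 0.000397, adjusted 0.00714) and Spearman's rho = 0.90 (exact permutation p = 0.00456, adjusted 0.0821). It was 0.95 without the 2 libraries farthest from the median score and 0.96 without WT mineral oil replicate 1. In the 7 CCl4 libraries Ccnd2 had r = 0.22 (exact permutation p = 0.642, adjusted 0.739) and rho = 0.21 (exact permutation p = 0.662, adjusted 0.700). Without the 2 farthest libraries that r was −0.89. In the 8 mineral oil libraries Ccnd1 had r = 0.40 (exact permutation p = 0.318, adjusted 0.572) and rho = 0.38 (exact permutation p = 0.360, adjusted 0.571). That r was 0.13 without the 2 farthest libraries and 0.76 without WT mineral oil replicate 1, so it depended on which libraries were in. Replicate 1 had a high score and 34.7 CPM of Ccnd1. In the 7 CCl4 libraries Ccnd1 had r = 0.17 (exact permutation p = 0.692, adjusted 0.739), and −0.48 without the 2 farthest. No other relation had an adjusted p under 0.05. The largest among the 7 CCl4 libraries was that of Rb1, with r = 0.83 (exact permutation p = 0.0236, adjusted 0.142) and 0.88 without the 2 farthest. Its rho was 0.89 (exact permutation p = 0.0123, adjusted 0.111). Among mineral oil libraries, r without WT mineral oil replicate 1 was 0.88 for Cdkn2c and 0.83 for Cdk4, from 0.43 and 0.42 with it. For the genes other than these and Ccnd1 and Ccnd2 it ran from −0.15 (Rb1) to 0.55 (Cdkn1c).

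**Figure D5:**
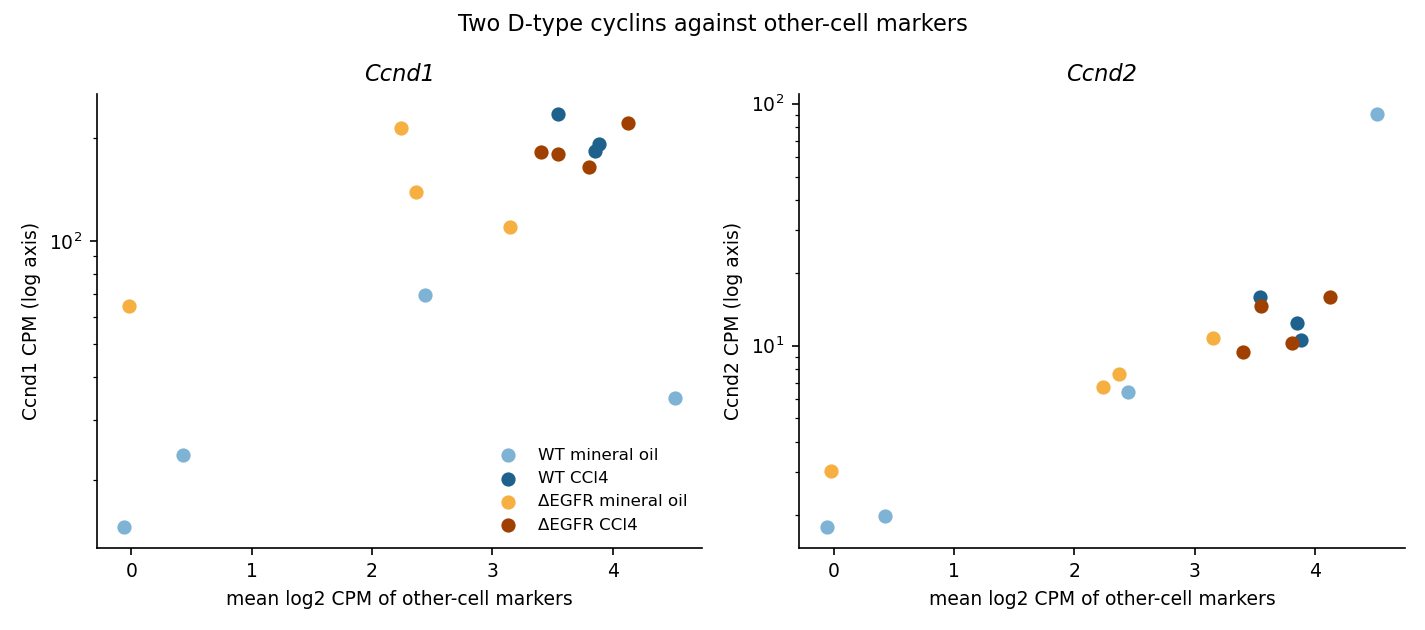
Each point is a library, with the mean log2 CPM of 73 other-cell markers on the x axis and CPM of Ccnd1 (left) or Ccnd2 (right) on a log y axis, coloured by group. Among mineral oil libraries Ccnd2 climbs with the markers (r = 0.93) up to WT mineral oil replicate 1 (score 4.52, 90.6 CPM), where Ccnd1 stays at 34.7 CPM, and among CCl4 libraries Ccnd2 had r = 0.22.

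Genes with the most similar pattern differed between the cyclins. Over the 15 libraries and 9656 genes compared, log2 CPM of Ccnd1 was closest to Col1a1 (r = 0.92), a fibrillar collagen gene, Anxa5 (0.91) and Rtn4 (0.90). Col1a1 is also among the markers of the other-cell score. Ccnd2 was closest to Gimap4 (0.98), a GTPase gene of lymphocytes, Ets1 (0.98) and Atp2b4 (0.98). WT mineral oil replicate 1 (90.6 CPM of Ccnd2, at most 15.9 CPM elsewhere) weighs heavily in these, and they were not computed without it. Ccnd3 was closest to Fam133b (0.83), Cebpd (0.83) and Jarid2 (0.82). The points share treatment groups and preparation, and these values are descriptions.

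In the GENCODE M21 annotation of another build, an exon of each gene but Cdkn1b and Cdkn2c overlapped a gene on the opposite strand, among them Tspan31 for Cdk4, Bysl for Ccnd3 and Lpar6 for Rb1. The library kit keeps strand, but its use in counting is not given in the sources used here, so a share of reads from such partners cannot be told apart.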

How the data were processed

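Messenger RNA of mouse hepatocytes was sequenced with a stranded kit, per the labels' protocols. The authors deposited a gene table for each of the 15 libraries with an expected count and a TPM value for each of 56953 genes. STAR 2.7.8a, RSEM 1.3.0 and the build GRCm39 are named, per the submitters' processing notes. Which annotation was used, and whether counting used strand, is not given in the sources used here. Symbols for 52029 genes (91.4%) came from a gene-name table of another build, used for names only. The 9 genes, the gene lists and the markers were chosen with earlier results of these data known.

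The deposited expected counts were rounded, filtered with filterByExpr (minimum count 10, minimum total 15, leaving 17975 genes) and scaled by TMM. One mean per group was fitted in edgeR 4.0.16 (R 4.3.3) by the robust quasi-likelihood test, with Benjamini-Hochberg adjustment over all tested genes and a prior count of 2. The common biological coefficient of variation was 50.9%. Shares and levels between genes used the deposited TPM. Relations with the other-cell score used exact two-sided permutation tests on log2 CPM (pseudocount 0.5) in Python 3.11.15. The procedure was tested on simulated data.

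Alternatives were other scaling factors or none, no low-count filter, a minimum of 1 CPM in 3 libraries, DESeq2 1.42.0, limma 3.58.1 on log2(TPM + 1), the other-cell score or the depth class (total counts above or below 80 M) as a covariate, only the groups compared, and each library left out. From the lists of other G1 genes and E2F targets, up to 4 called genes with the lowest adjusted p per comparison were named, and Ccne1, Cdk2, Cdkn1a, Rbl1, E2f1 and Myc in any case. For each D-type cyclin the 3 genes with the highest Pearson's r were named. Promoters were 250 bases from RefSeq (GRCm38.p6), matched by symbol. Reads carried no molecular identifiers in the sources used here, so depth sets counting error only.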

Additional observations from a re-analysis of the deposited data

Results flagged for a closer look

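In WT mineral oil, replicate 1 stood far from the other 3 libraries for Ccnd2, at 90.6 CPM against 1.78 to 6.45 CPM. The same library had 82.2 CPM of Ccnd3 against 35.8 to 42.9 CPM, and 55.3 CPM of Cdkn1b against 18.7 to 24.8 CPM. It also had the highest other-cell score (4.52) and the highest neutrophil (2002 CPM), T and NK cell (145 CPM), B cell (113 CPM) and endothelial (835 CPM) sums. The part of these in the cyclin levels of that library was not tested. For Cdkn2c it was replicate 4 of the same group that stood apart, at 19.1 CPM against 2.27 to 4.28 CPM. Of 27 groups checked in this way, 4 had a library apart. If the checks were independent, chance would mark about 1 group in 20, or 1.35 of 27. The checks share libraries, and 3 of the 4 flags were the same library, so that figure cannot serve as an expectation here. WT CCl4, with n = 3, was not checked.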

How the results depend on the processing

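No paired analysis was possible because the labels give no replicate numbers, animals or batches. Of the 9 genes, those called with CCl4 in WT went from 2 to 1 with only the groups compared, and to 2 to 3 with 1 library left out. With CCl4 in ΔEGFR they went from 0 to 2 with no scaling factor, DESeq2 or limma, to 1 with the depth class, and to 0 to 1 with 1 library left out. Averaged over the genotypes they went from 3 to 5 with no scaling factor, to 1 with the other-cell score, and to 3 to 5 with 1 library left out. All genes called with CCl4 in WT (2250) numbered 1457 with no filter, 3622 with DESeq2, 837 with the other-cell score, 533 with only the groups compared and 575 to 5111 with 1 library left out. In ΔEGFR (746) they numbered 1180 with no scaling factor, 470 with no filter, 2410 with DESeq2, 2132 with limma, 87 with the other-cell score, 1643 with the depth class, 1286 with only the groups compared and 75 to 2145 with 1 library left out. Averaged over the genotypes (4876) they numbered 1448 with the other-cell score and 3293 to 7810 with 1 library left out. DESeq2 called 2 genes for ΔEGFR in CCl4, 2 for the interaction and 3 for the mean over treatments, and limma called 1 for the interaction, where edgeR called 0. Signs turned only in values that were not called with all libraries fitted. With CCl4 in WT these were Ccnd2 (limma 0.61, depth class 0.26), Ccnd3 (no scaling factor 0.078, limma 0.28), Cdkn1b (no scaling factor 0.17, limma 0.37) and Cdkn2c (other-cell score −0.61). In ΔEGFR the other-cell score gave Ccnd1 −0.047, Ccnd2 −1.0, Cdkn1b −0.42 and Cdkn2c −0.62. Ccnd3 there was 0.017 with RLE factors or DESeq2, 0.025 with upper-quartile factors or no filter, 0.45 with no scaling factor, 0.54 with limma and 0.064 with the depth class. For ΔEGFR in mineral oil, Cdk6 was −0.013 with RLE factors or DESeq2, −0.0076 with the 1 CPM filter and −0.0050 with only the groups compared, and Cdkn1c was −0.21 with the depth class. For ΔEGFR in CCl4, Ccnd2 was 0.20 with limma and Ccnd3 −0.18 with the depth class. In the mean over genotypes Ccnd2 was 0.29 with no scaling factor, 0.92 with limma and 0.90 with the depth class. Ccnd3 was 0.26 and 0.41 with no scaling factor and limma, Cdkn1b 0.30 and 0.43 with these and 0.0066 with the depth class, and Cdkn2c −0.61 with the other-cell score. In the mean over treatments Cdk4 was −0.0068 with limma. With 1 library left out, signs turned within these ranges. CCl4 in WT: Ccnd2 −1.36 to 1.93, Ccnd3 −0.44 to 0.064, Cdkn1b −0.39 to 0.27 and Cdkn2c −0.24 to 1.5. CCl4 in ΔEGFR: Ccnd3 −0.14 to 0.059, Cdkn1b −0.11 to 0.19 and Cdkn2c −0.17 to 0.68. ΔEGFR in mineral oil: Ccnd2 −2.23 to 1.05, Ccnd3 −0.38 to 0.11, Cdk6 −0.10 to 0.17 and Cdkn1b −0.44 to 0.22. ΔEGFR in CCl4: Ccnd2 −0.18 to 0.13, Ccnd3 −0.11 to 0.15 and Cdkn1b −0.13 to 0.090. Interaction: Ccnd2 −1.10 to 2.18, Ccnd3 −0.089 to 0.39, Cdk6 −0.015 to 0.27, Cdkn1b −0.26 to 0.41 and Cdkn2c −1.32 to 0.44. CCl4 over genotypes: Ccnd2 −0.27 to 1.38, Ccnd3 −0.24 to 0.020, Cdkn1b −0.20 to 0.14 and Cdkn2c −0.020 to 0.84. ΔEGFR over treatments: Ccnd2 −1.15 to 0.50, Ccnd3 −0.18 to 0.069 and Cdkn1b −0.24 to 0.089. The share of Ccnd1 among the cyclins was 35.1%, 79.2%, 70.5% and 77.5% from CPM in place of TPM. Counts over the 30 and 22 listed genes under each alternative were added after seeing the data. Where a result changed, the cause was not tested.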

Other observations

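The makeup of the inhibitor pool differed between groups in mean, with wide spreads. Cdkn1b held 69.8% ± 18.5 (SD, n = 4) of the summed TPM of the 3 inhibitors in WT mineral oil and 58.7% ± 6.81 (n = 3) in WT CCl4. In ΔEGFR it held 49.8% ± 16.8 with mineral oil and 39.7% ± 3.19 with CCl4 (n = 4 each). Cdkn2c held 25.1% ± 19.4, 30.4% ± 8.97, 44.2% ± 17.6 and 46.6% ± 7.84 in the same order. Cdkn1c, the smallest share, held 5.06% ± 1.05, 10.9% ± 2.93, 5.91% ± 2.71 and 13.8% ± 7.16. Its WT mineral oil shares, at most 6.12%, lay below all WT CCl4 shares, at least 8.36%, whereas in ΔEGFR the treatments overlapped (up to 7.87% with mineral oil and from 7.0% with CCl4).

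D-type cyclin transcripts were also set against those of the inhibitors and of the kinases in each library. Per inhibitor TPM, D-type cyclin TPM was 2.69 ± 0.610 in WT mineral oil, 5.28 ± 1.94 in WT CCl4, 3.12 ± 0.588 in ΔEGFR mineral oil and 3.42 ± 0.711 in ΔEGFR CCl4. WT libraries did not overlap between treatments (at most 3.40 with mineral oil, at least 3.55 with CCl4), and ΔEGFR libraries did. Per TPM of Cdk4 and Cdk6 the ratio was 1.46 ± 0.869, 1.73 ± 0.280, 1.73 ± 0.277 and 1.77 ± 0.139, overlapping throughout. These ratios were not tested.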
